A study of Mus musculus with 6 samples.

Results

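The SLC25 family holds the carrier proteins of the inner mitochondrial membrane, with a few members in the outer membrane and in peroxisomes. Its members were chosen by name alone, as every row of the deposited gene table whose symbol begins with Slc25a and a digit, which gave 48 of 55809 symbols. They were followed in 410.4 cells, a mouse mammary carcinoma line, kept in medium with 0.5% fetal calf serum. The cells received for 2 days either medium conditioned with neutrophil extracellular traps (NETs), the webs of DNA and granule proteins that neutrophils release, or control medium, titled Veh. Messenger RNA was sequenced from 3 NETs libraries and 3 Veh libraries. The labels give no genotype difference between the groups and do not say how the NETs were raised, whether control medium went through the same steps, or whether replicates were separate cultures. The p-values therefore cover the spread among these 6 libraries, and that spread may be technical.

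The inner mitochondrial membrane is closed to most ions and metabolites, and each SLC25 protein passes a small set of them, often as an exchange of one for another. The family thereby links the cytosol to the respiratory chain (ADP, ATP and phosphate), to the citric acid cycle (citrate, malate, oxoglutarate), to amino acid and urea cycle metabolism (glutamate, aspartate, ornithine) and to the building of heme and iron-sulfur clusters (iron, glycine). In tumour cells these carriers are known for supplying citrate for lipid synthesis, aspartate for nucleotides and glutathione for redox balance.

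The NETs libraries held 31119105 to 52890140 counts and the Veh libraries 43923391 to 64431811. Over the whole table, 13956 genes passed the filter on low counts, and 5430 of them (38.9%) were called by edgeR's quasi-likelihood test at an adjusted p of 0.05, 2825 (20.2%) higher and 2605 (18.7%) lower with NETs. The epithelial genes Epcam, Krt8, Krt18 and Cdh1, which mark a carcinoma line, together stood at 2809 to 2988 CPM (counts relative to the scaled library total) in NETs libraries. In Veh libraries their sum was 2981 to 3177 CPM. Singly they moved in different directions. Krt8 rose (log2 fold change 0.25, adjusted p = 0.000491), while Krt18 (-0.27, adjusted p = 0.000377) and Cdh1 (-0.14, adjusted p = 0.0281) fell. Epcam did not pass (-0.07, adjusted p = 0.346). Of 14 neutrophil markers, Elane, Ngp, Camp, Csf3r, Retnlg and Mmp8 had no count in any library, and Mpo, Ly6g and Ptprc had none in NETs libraries. S100a9 had 2, 0 and 9 counts with NETs and 12, 0 and 8 counts with Veh, and did not pass the filter. The 4 neutrophil markers that were tested summed to 845 to 910 CPM with NETs and to 1361 to 1744 CPM with Veh, most of it from Lcn2. They did not move one way: Lcn2 and Ltf fell, S100a8 rose (1.91-fold, adjusted p = 0.00136), and Cxcr2 had 0.481 ± 0.151 CPM with NETs and 0.220 ± 0.0204 CPM with Veh without passing (adjusted p = 0.0575).

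Among the carriers, 6 rose and 8 fell with NETs, out of 41 that passed the filter on low counts. The called share was 34.1%, against 38.9% of all genes tested, and the median log2 fold change was -0.07, against -0.00385 for all genes. Most changes were small. Of the called carriers 2 changed by at least 2-fold, 4.88% of those tested against 5.95% of all genes: the glutamate carrier Slc25a18, which was 12.2-fold higher, and Slc25a35, a carrier of less settled substrate, which was 2.23-fold lower. Without Veh replicate 2 the log2 fold change of Slc25a35 was -0.92, which is under 2-fold. No other called carrier reached 1.5-fold (4.88% of carriers against 11.7% of all genes at that size). The groups did not overlap in CPM at 23 carriers, 56.1% of those tested, against 49% of all genes. Scaled by library size alone, 2 carriers were higher and 18 lower, and over all genes 35.9% of calls were higher, against 52.0% with the scaling used here. Without Veh replicate 1 or Veh replicate 2, 3 carriers were higher. In a bulk culture, fewer cells that express a gene and less of its RNA per cell cannot be told apart.

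**Figure D1:**
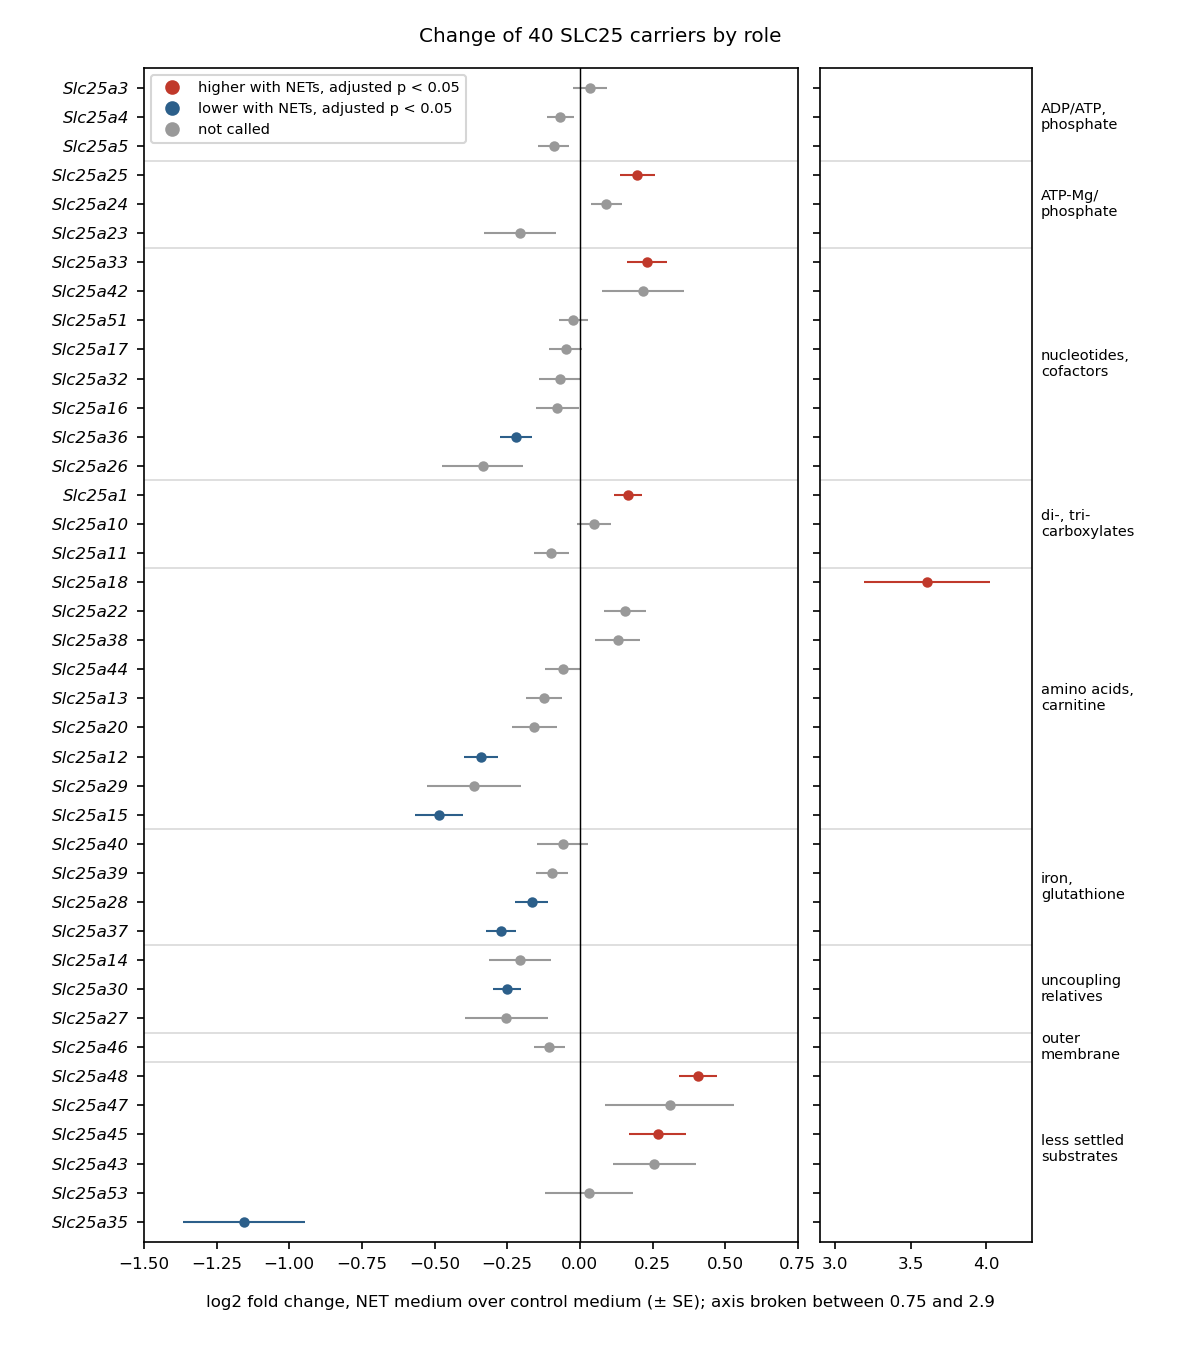
Log2 fold change of 40 tested carriers, NET medium over control medium, with its SE, ordered by role from top to bottom; the axis is broken because Slc25a18 stands apart at 3.61. Red points mark the 6 carriers that rose, blue points 7 that fell and grey points the 27 that did not pass the test.

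The other 7 rows stood at or near 0. Slc25a21, the oxodicarboxylate carrier, Slc25a41, a calcium-independent ATP-Mg/phosphate carrier, and Slc25a54 had no count in any library. With a limit of 6 counts, or 3 read pairs, for a count of 0, this allows up to 0.116 to 0.199 CPM in NETs libraries and 0.0902 to 0.133 CPM in Veh libraries, for counting error only. Slc25a31, the ADP/ATP carrier of the testis, and the ornithine carrier Slc25a2 had 2 counts in all, each in a single NETs library. Slc25a34 had 4 counts, in a single Veh library, and the pseudogene Slc25a5-ps had 2 counts in 1 library of each group.

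The promoters of 3 carriers are shown, because one belongs to the carrier with the largest change and the others to a pair of related carriers that were called in opposite directions. Each runs from 250 bases before to 50 bases after the start of transcription in RefSeq, build GRCm38.p6, on the strand of the gene. Slc25a18 is chr6:120773518-120773817 (+), Slc25a33 chr4:149774218-149774517 (-) and Slc25a36 chr9:97110992-97111291 (-). Capitals mark an E-box (CACGTG) or a cAMP response element (TGACGTCA).
Slc25a18: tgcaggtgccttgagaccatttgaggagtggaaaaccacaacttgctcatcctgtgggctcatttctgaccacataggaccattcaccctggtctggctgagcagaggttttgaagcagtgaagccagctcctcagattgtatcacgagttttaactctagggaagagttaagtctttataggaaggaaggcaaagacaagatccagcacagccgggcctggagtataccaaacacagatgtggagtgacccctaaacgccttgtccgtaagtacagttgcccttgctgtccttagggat
Slc25a33: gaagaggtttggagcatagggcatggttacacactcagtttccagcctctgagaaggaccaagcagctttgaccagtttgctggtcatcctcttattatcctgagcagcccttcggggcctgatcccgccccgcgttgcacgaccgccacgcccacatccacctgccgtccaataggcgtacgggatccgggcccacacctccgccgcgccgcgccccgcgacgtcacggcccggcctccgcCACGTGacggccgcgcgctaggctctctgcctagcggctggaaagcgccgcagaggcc
Slc25a36: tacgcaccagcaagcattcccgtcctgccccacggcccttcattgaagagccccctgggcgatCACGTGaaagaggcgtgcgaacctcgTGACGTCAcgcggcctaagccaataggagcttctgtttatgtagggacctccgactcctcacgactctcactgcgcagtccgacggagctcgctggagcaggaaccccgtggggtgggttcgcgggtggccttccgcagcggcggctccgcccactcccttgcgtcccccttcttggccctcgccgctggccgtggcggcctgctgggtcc
Slc25a33 and Slc25a36 each held an E-box, Slc25a36 also a cAMP response element, and Slc25a18 held none of the motifs searched.

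RefSeq promoters were found for 36 of the 48 members, 46 sequences in all. The E-box stood in 8 of these 46 (17.4%), against 7.15% of 32851 promoters, in Slc25a1, Slc25a13, Slc25a14, Slc25a15, Slc25a31, Slc25a33 and Slc25a36. These genes include carriers called higher, carriers called lower and carriers not called. Some members have several sequences, which are not independent, and overlapping sequences of Slc25a14 that held an E-box were each counted. The AP-1 motif TGANTCA stood in 2 of 46 (4.35%, against 7.81%) and the cAMP response element in 2 of 46 (4.35%, against 1.79%). The motifs GTCTAGAC (SMAD) and TGATGNAA (ATF4), and that of NRF1, a regulator of nuclear genes for mitochondria, stood in 0 of 46, against 0.213%, 3.97% and 0.971% of all promoters. All motifs were read on both strands, and a promoter was counted for a motif if it held any match. Carrier promoters had a median GC content of 59.3% and 15 CpG dinucleotides, against 52.7% and 7 over all promoters. The Slc25a18 promoter had 49.3% and 4 CpG, while those of Slc25a33 and Slc25a36 had 66.0% with 30 CpG and 66.7% with 29 CpG. A match describes the letters in the window and no more.

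Levels of different carriers were compared as TPM (which divides counts by gene length before scaling). The ADP/ATP carriers Slc25a5 and Slc25a4, which exchange cytosolic ADP for matrix ATP, were the most abundant. Slc25a5 stood at 721, 606 and 661 TPM in NETs libraries and at 750.3, 742 and 705 TPM in Veh libraries, and Slc25a4 at 559.6, 512 and 543 TPM against 588, 581 and 586 TPM. The phosphate carrier Slc25a3 had 317, 270 and 280.4 TPM with NETs and 292, 314 and 273 TPM with Veh. By the mean over all 6 libraries the fourth was Slc25a24, an ATP-Mg/phosphate carrier, with 237, 243 and 242 TPM with NETs against 228, 229 and 247 TPM with Veh. The glutathione carrier Slc25a39 came next, with 229.6, 214 and 218 TPM with NETs and 247, 263 and 224 TPM with Veh, where its mean was above that of Slc25a24. The carriers Slc25a5, Slc25a4, Slc25a3 and Slc25a24 together took 54.6 ± 0.906% of the summed carrier TPM with NETs and 54.4 ± 0.388% with Veh (mean ± SD, n = 3 each).

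The summed level of all carriers was 3316, 3044 and 3153 TPM with NETs and 3419, 3455 and 3304 TPM with Veh. The ranges overlap, and the difference did not pass an exact two-sided permutation test over the libraries (p = 0.2, where 3 against 3 cannot go below 0.1). The lowest tested carrier over all libraries was Slc25a18, at 2.71 ± 0.560 TPM with NETs and 0.236 ± 0.120 TPM with Veh. Next came Slc25a53, at 2.40 ± 0.554 TPM with NETs and 2.44 ± 0.263 TPM with Veh. Slc25a47, best known from liver, had 2.13, 3.58 and 2.39 TPM with NETs and 2.41, 2.18 and 2.09 TPM with Veh, and Slc25a35 had 1.79 ± 0.210 and 4.17 ± 1.26 TPM. With NETs the values of Slc25a18, Slc25a47 and Slc25a53 overlapped, whereas in Veh libraries Slc25a18 stood below the other 3.

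**Figure D2:**
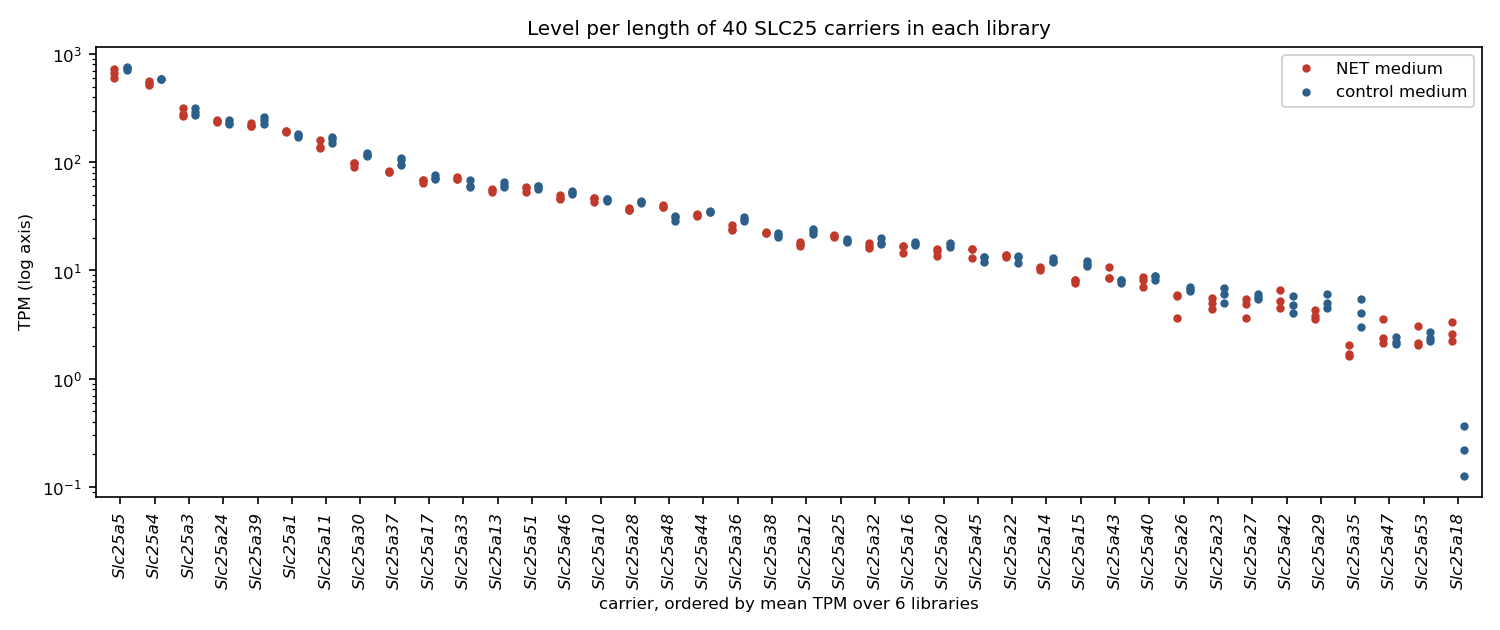
TPM of 40 tested carriers on a log axis in each library, ordered by mean TPM, with NET medium at the left of control medium. The groups lie close together for most carriers; at Slc25a18, at the far right, the control points between 0.125 and 0.363 TPM lie below all others.

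None of the 3 tested carriers of ADP, ATP and phosphate passed the test, against 38.9% of all genes, and 0 had an unadjusted p under 0.05. With library size alone Slc25a4 and Slc25a5 were called lower. The groups did not overlap at Slc25a4, with 342, 325 and 337 CPM with NETs and 347, 349 and 356 CPM with Veh. Slc25a4 averaged 335 ± 8.72 CPM with NETs and 351 ± 4.88 CPM with Veh (log2 fold change -0.07 ± 0.05 SE, adjusted p = 0.277), and Slc25a5 288 ± 19.7 and 307 ± 6.26 CPM (-0.09 ± 0.05, adjusted p = 0.197). Slc25a3 had 424 ± 28.7 and 414 ± 27.0 CPM (0.03 ± 0.06, adjusted p = 0.691), a difference whose sign turned without NETs replicate 1 (-0.025) or Veh replicate 3 (-0.0050) and with library size alone (-0.034). Slc25a4 and Slc25a5 are near relatives with copies elsewhere in the genome. No source used here states how multi-mapping reads were counted, so both values are uncertain.

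The ATP-Mg/phosphate carriers load adenine nucleotides into the matrix in response to calcium. One of them rose: Slc25a25 had 41.6, 45.5 and 43.2 CPM with NETs against 37.3, 36.5 and 39.6 CPM with Veh, with no overlap (log2 fold change 0.20 ± 0.06 SE, adjusted p = 0.0146). Its call was lost without NETs replicate 2 (0.16), NETs replicate 3 (0.20), Veh replicate 1 (0.19) or Veh replicate 2 (0.17). Slc25a24 (219 ± 7.31 against 205 ± 12.2 CPM, adjusted p = 0.184) passed only without Veh replicate 3 (0.14). Slc25a23 had 6.94 ± 0.738 and 8.08 ± 1.16 CPM and did not pass (adjusted p = 0.205).

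Among the nucleotide and cofactor carriers, the pyrimidine nucleotide carriers Slc25a33 and Slc25a36, whose promoters are given above, were called in opposite directions. Slc25a33 had 35.8, 35.4 and 34.6 CPM with NETs and 28.4, 33.2 and 28.7 CPM with Veh (log2 fold change 0.23 ± 0.07 SE, adjusted p = 0.0134). Slc25a36 had 65.8, 62.0 and 60.2 CPM with NETs and 75.0, 73.7 and 70.5 CPM with Veh (-0.22 ± 0.05, adjusted p = 0.00374). In both carriers each NETs library lay on one side of all Veh libraries. The call of Slc25a33 was lost without Veh replicate 1 (0.19), and 14.9% of its exonic bases lie on exons of Gm13068 on the other strand, which had 1 count in all.

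The S-adenosylmethionine carrier Slc25a26 had 7.18, 4.72 and 7.50 CPM with NETs and 7.86, 8.67 and 8.33 CPM with Veh. NETs replicate 2 lay well below the others, and the gene did not pass (-0.34 ± 0.14, adjusted p = 0.0686), although it did without NETs replicate 1 (-0.41) or NETs replicate 3 (-0.46), with library size alone or with no filter. Of its exonic bases 144 lie on exons of Lrig1 on the other strand, which had 140358 counts in all, against 2225 for Slc25a26. The part of reads from these shared bases was not tested.

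The other cofactor carriers did not pass the test. The NAD carrier Slc25a51 stood at 82.0 ± 2.75 CPM with NETs and 83.4 ± 1.84 CPM with Veh, and without NETs replicate 2 its log2 fold change of -0.022 turned to 0.0045. The peroxisomal carrier Slc25a17 had 50.8 ± 2.20 and 52.5 ± 2.11 CPM, and the folate and flavin carrier Slc25a32 had 27.4 ± 1.04 and 28.8 ± 2.20 CPM. Slc25a16 and Slc25a42, both linked to coenzyme A, had 20.3 ± 1.42 CPM with NETs against 21.5 ± 0.995 CPM with Veh, and 8.63 ± 1.52 against 7.44 ± 1.26 CPM.

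Of the di- and tricarboxylate carriers, the citrate carrier Slc25a1, which exports citrate for the synthesis of fatty acids and sterols, rose. Its values were 109.5, 113 and 108 CPM with NETs and 98.9, 94.7 and 101 CPM with Veh, with no overlap (log2 fold change 0.17 ± 0.05 SE, adjusted p = 0.0120). The call was lost without Veh replicate 2 (0.14). The dicarboxylate carrier Slc25a10 had 41.3 ± 2.39 CPM with NETs and 39.9 ± 0.776 CPM with Veh (adjusted p = 0.568). The oxoglutarate carrier Slc25a11, part of the malate-aspartate shuttle, had 81.2 ± 5.94 and 87.0 ± 4.68 CPM (-0.10 ± 0.06, adjusted p = 0.215) and passed without NETs replicate 1 (-0.16) or with library size alone.

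Carriers of amino acids, ornithine and carnitine held the largest rise of the family, with 1 of 9 tested higher and 2 lower (33.3% called, against 38.9% of all genes). Slc25a18, which brings glutamate into the matrix and is known mainly from astrocytes, had 74, 40 and 58 counts with NETs and 4, 8 and 6 counts with Veh. That came to 1.65, 1.33 and 1.12 CPM with NETs against 0.0601, 0.177 and 0.109 CPM with Veh. Each NETs library was thus several-fold above every Veh library (log2 fold change 3.61 ± 0.42 SE, adjusted p = 2.53e-06). Counted as read pairs, 86 with NETs against 9 with Veh gave a ratio of 12.6 after scaling, with an exact 95% Clopper-Pearson interval of 6.34 to 28.5 that covers counting error only.

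The level of Slc25a18 was low even with NETs, and the gene passed the filter on low counts through its NETs libraries alone, so that it could be tested only because it was high there. In the coordinates of the deposited table it spans positions 120750539 to 120771297 of chromosome 6 (exons and introns). Of its exonic bases 1.67% lie on exons of Atp6v1e1, a proton pump subunit gene on the other strand, which had 93.6 ± 0.792 CPM with NETs and 78.2 ± 2.80 CPM with Veh (1.20-fold, adjusted p = 0.000519). The strand setting is unknown, and the part of reads from these shared bases in the result was not tested. The neighbouring gene Cecr2 had a log2 fold change of 0.46 and did not pass (adjusted p = 0.0826).

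The other glutamate carrier, Slc25a22, had 21.9, 21.7 and 22.1 CPM with NETs and 20.1, 20.6 and 18.2 CPM with Veh. The groups did not overlap, but the gene did not pass the test (0.15 ± 0.07, adjusted p = 0.103). Per length, Slc25a22 stayed the more abundant of the pair in every library, with 13.8 ± 0.360 TPM with NETs and 12.9 ± 0.965 TPM with Veh.

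Slc25a15, which moves ornithine for the urea cycle and for polyamine and proline metabolism, was 1.40-fold lower, with 11.8, 11.7 and 12.02 CPM with NETs against 16.1, 17.6 and 16.1 CPM with Veh (-0.48 ± 0.08, adjusted p = 0.000141). The aspartate/glutamate carrier Slc25a12, of the malate-aspartate shuttle, was 1.27-fold lower, with 34.9, 33.7 and 33.8 CPM with NETs against 44.8, 43.4 and 41.4 CPM with Veh (-0.34 ± 0.06, adjusted p = 0.000161). In both carriers all NETs libraries lay below all Veh libraries. Slc25a13, the second aspartate/glutamate carrier, had 55.2 ± 2.34 CPM with NETs and 60.2 ± 4.39 CPM with Veh and did not pass (-0.12 ± 0.06, adjusted p = 0.123).

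The remaining amino acid carriers did not pass the test. The carnitine/acylcarnitine carrier Slc25a20, which admits fatty acids for oxidation, had 19.1 ± 1.63 CPM with NETs and 21.3 ± 0.470 CPM with Veh (adjusted p = 0.120). Slc25a29, a carrier of basic amino acids, had 2.68 ± 0.219 and 3.46 ± 0.540 CPM (-0.36 ± 0.16, adjusted p = 0.0884). The glycine carrier Slc25a38, needed for heme synthesis, had 16.3 ± 0.555 and 14.8 ± 0.519 CPM (0.13 ± 0.08, adjusted p = 0.205), and the branched-chain amino acid carrier Slc25a44 had 30.7 ± 1.35 and 31.9 ± 0.571 CPM (adjusted p = 0.482).

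**Figure D3:**
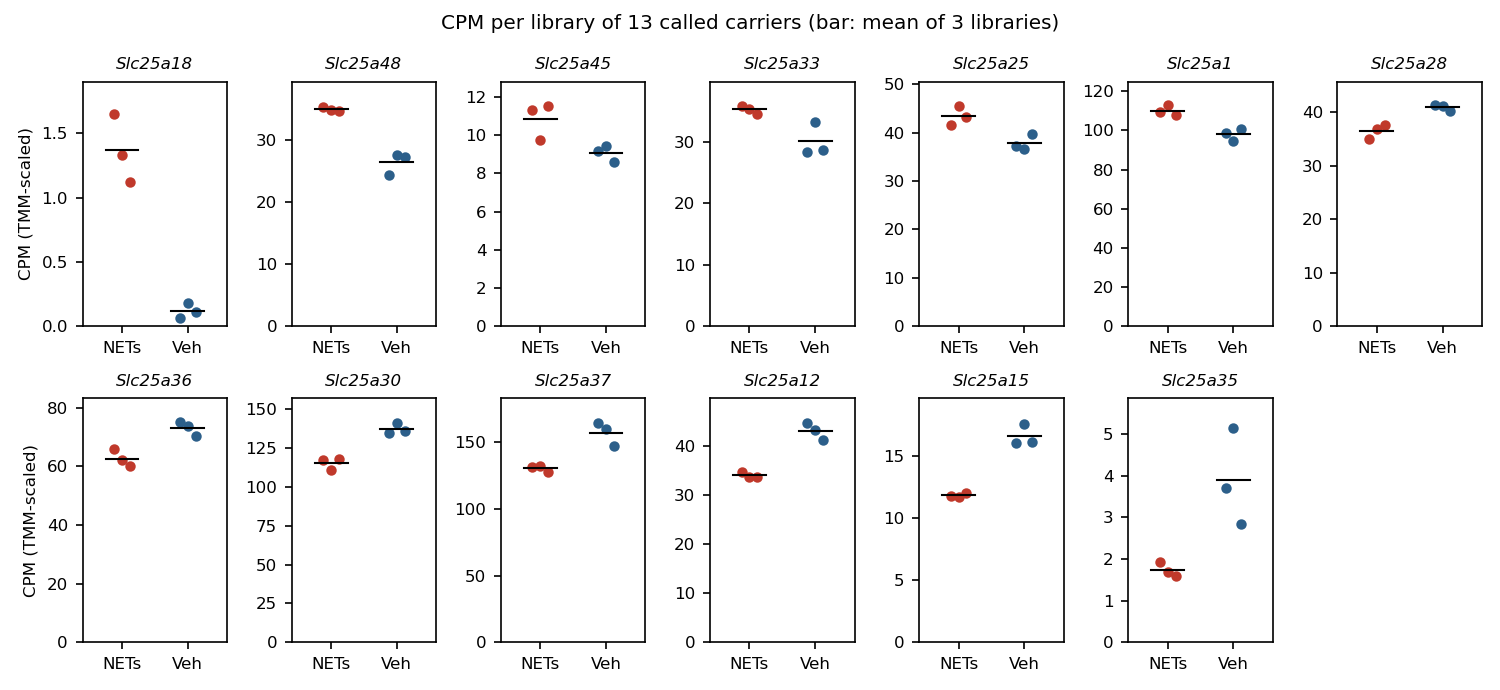
CPM in each library of 13 called carriers, from the largest rise in the first panel to the largest fall in the last, with a bar at the mean of 3 libraries and each axis starting at 0. In every panel the 3 NETs points lie on one side of the 3 Veh points, with a wide gap at Slc25a18 and narrow gaps at carriers such as Slc25a33 and Slc25a25.

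Both mitoferrins fell. Slc25a37, which imports iron for heme and iron-sulfur clusters, was 1.21-fold lower, with 131, 132 and 128 CPM with NETs against 165, 159.7 and 147 CPM with Veh (-0.27 ± 0.05, adjusted p = 0.000454). Slc25a28, its more widely expressed relative, had 35.0, 36.9 and 37.6 CPM with NETs and 41.3, 41.2 and 40.3 CPM with Veh (-0.17 ± 0.06, adjusted p = 0.0295). The groups did not overlap in either, but the call of Slc25a28 was lost without NETs replicate 1 (-0.14), Veh replicate 1 (-0.16) or Veh replicate 2 (-0.16). The glutathione carriers Slc25a39 and Slc25a40 had 161 ± 3.27 CPM with NETs against 172 ± 12.6 CPM with Veh, and 17.8 ± 2.03 against 18.5 ± 1.04 CPM, and did not pass (adjusted p = 0.179 and 0.638). Slc25a39 passed without Veh replicate 3 (-0.15) or with library size alone, and without NETs replicate 3 the log2 fold change of Slc25a40, -0.06 over all libraries, was 0.025.

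The 3 relatives of the uncoupling proteins had negative log2 fold changes, as did 7071 of all 13956 genes tested. Of the 3 relatives 1 passed the test (33.3% called, against 38.9% of all genes). Slc25a30 was 1.19-fold lower, with 117, 111 and 118 CPM with NETs against 134, 141 and 136 CPM with Veh, with no overlap (-0.25 ± 0.05, adjusted p = 0.000512). Slc25a14 had 6.51 ± 0.358 CPM with NETs and 7.50 ± 0.478 CPM with Veh (adjusted p = 0.143), and Slc25a27 had 4.87 ± 0.975 and 5.74 ± 0.258 CPM (adjusted p = 0.179). Slc25a46, an outer membrane member linked to mitochondrial fusion and fission, had 67.7 ± 2.49 and 72.9 ± 2.37 CPM and did not pass (-0.11 ± 0.05, adjusted p = 0.130).

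Of 6 tested members with less settled substrates 2 rose and 1 fell (50% called, against 38.9% of all genes). Slc25a48, linked in human cells to the import of choline, was 1.32-fold higher, with 35.3, 34.8 and 34.7 CPM with NETs against 24.4, 27.6 and 27.3 CPM with Veh (log2 fold change 0.41 ± 0.07 SE, adjusted p = 9.34e-05). The NETs libraries lay close together and above all Veh libraries. Slc25a45 had 11.3, 9.76 and 11.5 CPM with NETs against 9.17, 9.42 and 8.62 CPM with Veh (0.27 ± 0.10, adjusted p = 0.0388). Its call was lost without NETs replicate 1 (0.24), NETs replicate 3 (0.22), Veh replicate 1 (0.28), Veh replicate 2 (0.29) or Veh replicate 3 (0.23). Upper-quartile factors, library size alone and no filter each lost it too.

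Slc25a35 had 1.94, 1.69 and 1.59 CPM with NETs and 3.71, 5.15 and 2.85 CPM with Veh. All NETs libraries lay below all Veh libraries, which were more widely spread (-1.16 ± 0.21, adjusted p = 0.000324). In the deposited table it spans positions 68858957 to 68865191 of chromosome 11, and 31.3% of its exonic bases lie on exons of Rangrf on the other strand. Rangrf had 4.11 ± 0.702 CPM with NETs and 4.98 ± 0.390 CPM with Veh (log2 fold change -0.29, adjusted p = 0.125), so reads of the 2 genes cannot be told apart there if strand was not used. Slc25a43 (4.38 ± 0.698 CPM with NETs, 3.63 ± 0.0794 CPM with Veh) and Slc25a47 (2.14 ± 0.659 and 1.69 ± 0.0985 CPM) did not pass. Neither did Slc25a53 (5.05 ± 1.08 and 4.94 ± 0.479 CPM), whose log2 fold change of 0.03 was -0.17 without NETs replicate 1 and -0.029 without Veh replicate 2.

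Related carriers were also set against each other within each library, as a log2 ratio per length that does not depend on how the libraries were scaled. In 9 pairs whose members both passed the filter, the ratio did not overlap between groups in 3. The share among other gene pairs was not counted. The ratios rest on the same counts as the calls above, so they give no separate support for them. An exact two-sided permutation test over 3 against 3 libraries cannot go below p = 0.1, and with adjustment over the 9 pairs each of these 3 had an adjusted p of 0.3, so none passed.

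The ratio of Slc25a33 to Slc25a36 was 1.47, 1.54 and 1.55 with NETs and 0.94, 1.20 and 1.05 with Veh on the log2 scale, a shift of 0.45 ± 0.08 (SE) toward Slc25a33. The ratio of Slc25a22 to Slc25a18 was 2.06, 2.34 and 2.62 with NETs and 6.42, 5.05 and 5.52 with Veh, a shift of -3.32 ± 0.43. That of Slc25a24 to Slc25a25 shifted by -0.11 ± 0.03. The ratio of the ADP/ATP carriers Slc25a4 to Slc25a5 overlapped between groups, with -0.37, -0.24 and -0.28 with NETs and -0.35, -0.35 and -0.27 with Veh (shift 0.03 ± 0.05).

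The ratios of the mitoferrins Slc25a28 to Slc25a37 (shift 0.10 ± 0.06) and of the aspartate/glutamate carriers Slc25a12 to Slc25a13 (-0.22 ± 0.11) overlapped too. So did Slc25a39 to Slc25a40 (-0.04 ± 0.14), Slc25a23 to Slc25a25 (-0.41 ± 0.19) and Slc25a14 to Slc25a30 (0.05 ± 0.09).

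**Figure D4:**
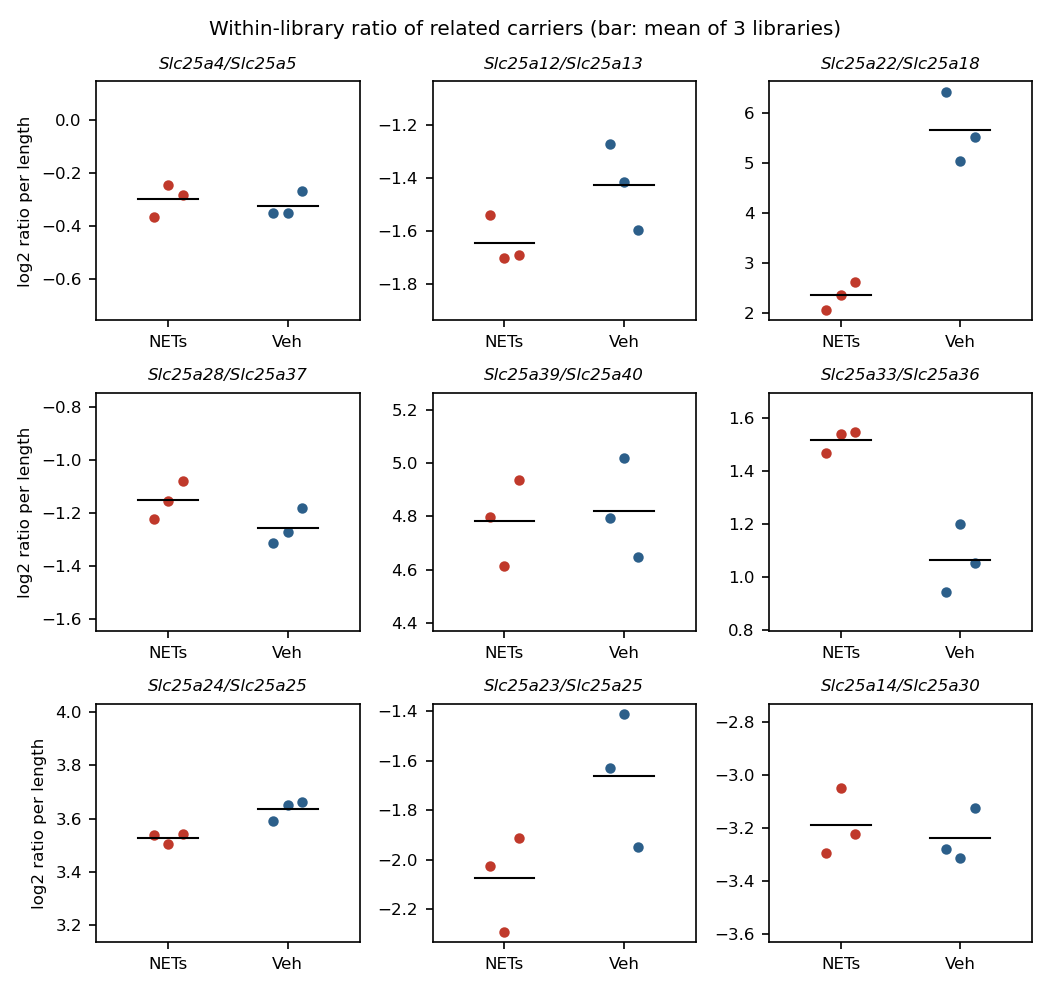
Log2 ratio per length of 9 pairs of related carriers in each library, with a bar at the mean of 3 libraries; the vertical axes differ between panels. The NETs and Veh points lie apart in the panels of Slc25a22/Slc25a18, Slc25a33/Slc25a36 and Slc25a24/Slc25a25 and overlap in the other 6.

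Genes that work with the carriers gave the surroundings of these values. Family members under other symbols did not pass: Ucp2, Mtch1 and Mtch2 were tested, and 0 of 3 were called (0 of 3 also at an unadjusted p under 0.05), with log2 fold changes of 0.02, 0.03 and -0.04. Of 22 other transporters and channels of the mitochondrial membranes 6 rose and 5 fell, or 50% called against 38.9% of all genes tested. Slc8b1, the sodium/calcium exchanger of the inner membrane, was lower at 19.0 ± 0.188 CPM with NETs against 32.5 ± 1.07 CPM with Veh (-0.77 ± 0.06, adjusted p = 4.99e-08), as was the heme-related transporter Abcb10 (-0.38 ± 0.06, adjusted p = 8.27e-05). Tspo, an outer membrane protein that binds cholesterol, was 1.90-fold higher at 119 ± 14.7 against 62.5 ± 6.83 CPM (adjusted p = 1.21e-05), and the sideroflexin Sfxn5 was 1.57-fold higher (adjusted p = 2.21e-06).

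Of 15 tested genes for the import of carrier proteins into the inner membrane 0 rose and 3 fell. That is 20% called, against 38.9% of all genes tested. The median log2 fold change was -0.07, and the 3 that fell were also all that had an unadjusted p under 0.05. Timm9, a chaperone of the intermembrane space, fell by 0.26 on the log2 scale, the receptor subunit Tomm22 by 0.20 and Timm29, of the carrier translocase, by 0.17. Of 32 tested enzymes that use what the carriers move 4 rose and 16 fell (62.5% called, against 38.9% of all genes), with a median of -0.13. The arginase Arg2, which makes ornithine in the matrix, fell by 2.39 on the log2 scale to 2.83 ± 0.211 CPM with NETs, against 14.8 ± 0.927 CPM with Veh. Cpt1a, which forms the acylcarnitines that Slc25a20 admits, had 109 ± 1.56 and 173 ± 2.95 CPM (-0.67 ± 0.05, adjusted p = 3.96e-09). The mitochondrial folate enzyme Mthfd1l fell by 0.51 and Gpd2, of the glycerol phosphate shuttle, by 0.43 on the log2 scale (adjusted p = 2.42e-07 and 1.59e-06).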

How the data were processed

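The authors deposited raw counts per gene symbol for 6 libraries, with featureCounts columns per the file headers. STAR 2.7.10a, featureCounts of Subread 2.0.3 and build mm10 are named in the submitters' processing notes. The sources used here give no strand setting, annotation release or rule for multi-mapping reads. Of the 48 members, 4 have table spans that overlap their mm10 position, so the table's coordinates follow another, unnamed build. Between 74.8% and 78.4% of counts from 1 to 20 were even, so both mates appear to have been counted. The deposited gene length (in bases) was used for TPM.

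Counts were filtered with filterByExpr (minimum count 10), scaled by TMM and compared with edgeR 4.0.16 (glmQLFit, robust, and glmQLFTest) in R 4.3.3, with Benjamini-Hochberg adjustment over 13956 genes. Ratios used a pseudocount of 1 read. The test was tried on simulated data. Members and lists were chosen with earlier results of these data known. One tested carrier is included in the counts and not reported here by itself, and from each other list up to 4 called genes of smallest p are named. Between libraries of a group, the chi-square of the deposited counts divided by its degrees of freedom was 9.66 to 25.2. Counting both mates inflates this value, so it overstates the spread beyond sampling noise. Each library was counted once. Alternatives were other scalings, filters, DESeq2 1.42.0, limma-voom 3.58.1, halved counts, a replicate block and leaving out each library.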

Additional observations from a re-analysis of the deposited data

How the results depend on the processing

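The 6 higher and 8 lower carriers were also counted with RLE factors, a filter of 1 CPM, halved counts, DESeq2, limma-voom, no robust estimation and the replicate block. Upper-quartile factors gave 5 higher and 8 lower, and no filter 5 and 9. With library size alone 2 carriers were higher and 18 lower, and 35.9% of all calls were higher, against 52.0% with TMM. Leaving out each library gave 3 to 6 higher, with 3 without Veh replicate 1 or Veh replicate 2, and 7 to 8 lower. Of the 14 called carriers 8 kept their call in every alternative (Slc25a18, Slc25a48, Slc25a12, Slc25a15, Slc25a30, Slc25a35, Slc25a36 and Slc25a37). With library size alone, calls of Slc25a1, Slc25a25, Slc25a33 and Slc25a45 were lost, Slc25a4, Slc25a5, Slc25a11, Slc25a13, Slc25a14, Slc25a20, Slc25a26, Slc25a29, Slc25a39 and Slc25a46 were called lower, and Slc25a3, Slc25a10 and Slc25a53 turned to -0.034, -0.021 and -0.036. Between leave-one-out fits, log2 fold changes ran from -0.025 to 0.085 for Slc25a3, -0.17 to 0.15 for Slc25a53, -0.041 to 0.0045 for Slc25a51 and -0.13 to 0.025 for Slc25a40. Depth limits Slc25a18 most, which had 4 to 8 counts in each Veh library. Pairs with no overlap numbered 3 to 6 when a library was left out, 5 without NETs replicate 1 and 6 without Veh replicate 3. Leaving out a library can only keep or raise this count, so it says nothing on how stable the 3 pairs are. Without length scaling the 4 most abundant carriers took 47.6% with NETs and 46.3% with Veh. The causes of the other shifts between settings were not tested.

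Same-numbered libraries deviated together with r of 0.35, -0.18 and 0.19, so the numbers were not taken as pairs. With the replicate block 5682 genes were called, and the carriers stayed at 6 and 8.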
